A study of Mus musculus with 6 samples.

Results

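The genes described here are 9 markers of motor neurons: the transcription factor genes Isl1, Isl2, Mnx1, Lhx3, Lhx4, Phox2a and Tbx20, and the acetylcholine genes Chat and Slc18a3. They were chosen by name, and all 9 had exactly 1 row with a single gene symbol among the 19938 genes tested. They were followed on 6 arrays of strain 129 mouse cells. Epiblast stem cells (EpiSCs), pluripotent cells of the postimplantation epiblast, were grown in Knockout DMEM with serum replacement and FGF2 (1 array). Patterned neural rosettes, clusters of neuroepithelium, were made from them by day 5 with SB431542, Dorsomorphin, Noggin, retinoic acid and sonic hedgehog (1 array). Oligodendrocyte progenitor cells (OPCs) grew out of dissociated rosettes in N2B27 with FGF2, PDGF-AA and sonic hedgehog and were sampled at passages 3 and 11 (1 array each). Oligodendrocytes were obtained from OPCs of the same passages by adding thyroid hormone and withdrawing FGF2 and PDGF-AA (1 array each). No transgene, deletion or clone is named in the labels, and every culture descends from EpiSCs. Beyond passage, nothing in the labels marks the 2 cultures of a cell type as independent derivations, so no p-value here speaks for other derivations. Each p-value between cell types sets a difference against the spread of passages 3 and 11 within OPCs and within oligodendrocytes. The lone rosette and EpiSC arrays have no spread of their own.

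Spinal motor neurons arise from ventral progenitors that carry Olig2 and Nkx6-1, the same domain that later yields many oligodendrocyte progenitors. As they leave the cell cycle, the LIM homeodomain proteins Isl1 and Lhx3 form a complex with the adaptor Ldb1 that switches on motor neuron genes, and Mnx1 (also known as HB9) holds the somatic identity. In the hindbrain, branchial and visceral motor neurons use Phox2a, and Tbx20 marks branchial motor neurons; all motor neurons make acetylcholine, for which Chat encodes the synthesising enzyme and Slc18a3 the vesicle transporter.

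Values are log2 expression, 1 row per gene, and differences are log2 differences. A row's level depends on its probes, so levels were compared between samples and not between genes. For orientation, 1190 olfactory and vomeronasal receptor genes, which these cells are not known to use, gave a 95th percentile of 8.18 to 8.41 across the arrays, called the receptor ceiling below. Of the 9 genes, 8 lay above this ceiling on the rosette array, 6 on the EpiSC array and on each OPC array, and 5 on each oligodendrocyte array. Between 63.7% and 67.7% of all genes lay above it. Markers of EpiSCs, OPCs and oligodendrocytes differed in the direction of the labels (limma, adjusted p from 0.0015 to 0.0247). All 4 EpiSC markers (Pou5f1, Nanog, Fgf5, Utf1) fell from EpiSCs to OPCs. All 4 OPC markers (Pdgfra, Cspg4, Olig1, Sox10) rose from rosette to OPCs (Cspg4 and Sox10 not without the passage 11 OPC array). All 3 measured myelin genes (Mbp, Mag, Mog) rose in oligodendrocytes. These are calls with all 6 arrays, and not all 3 myelin genes were called when the passage 3 OPC array was left out. Of the 4 OPC markers, 0 were called lower in oligodendrocytes than in OPCs (0.0502% of all genes). The rosette was marked less clearly: 1 of 4 neuroepithelial markers was at least 2-fold higher there than in EpiSCs (6.91% of all genes).

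The rosette held the highest level of most of these genes. For 6 of the 9, Isl1, Lhx3, Lhx4, Phox2a, Chat and Slc18a3, the rosette array was the highest of the 6, which was so for 19.6% of all genes. Between EpiSCs and rosette, 2 of the 9 were at least 2-fold higher, Tbx20 by 3.13 and Slc18a3 by 1.82, against 6.91% of all genes, and 0 were at least 2-fold lower (3.69% of all genes). The rosette also exceeded each later array by 2-fold or more for Isl1 and Slc18a3, 2 of the 9, as it did for 2.16% of all genes. The median of the 9 was 0.58 higher, beside -0.07 over all genes. Each side of that comparison is 1 array, so it has no test. From rosette to OPCs, Isl1 and Slc18a3 fell more than 4-fold, and between OPCs and oligodendrocytes none of the 9 passed the test.

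**Figure D1:**
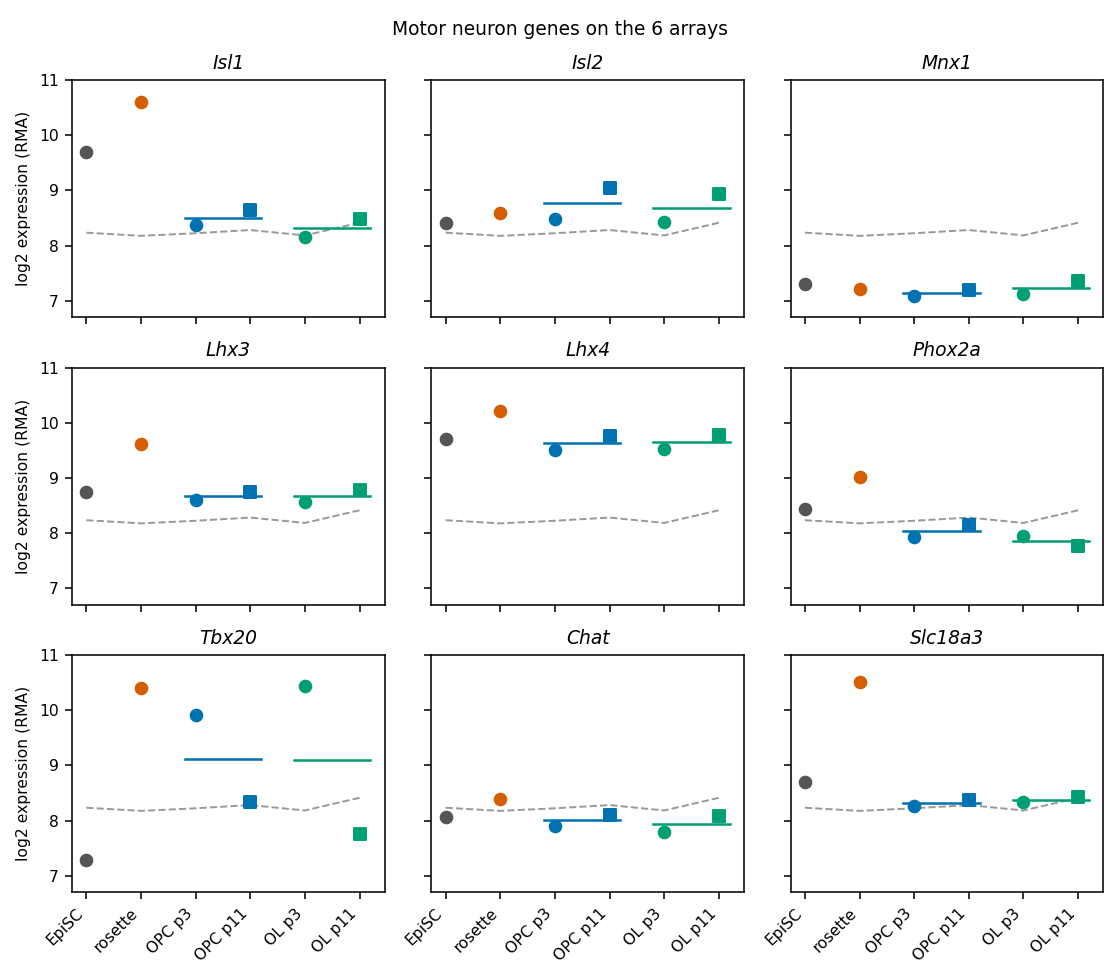
Log2 expression (vertical axis) of the 9 genes on the 6 arrays (OL, oligodendrocyte; p3 and p11, passage), 1 point per array. Horizontal lines are the means of the 2 OPC and the 2 oligodendrocyte arrays, and the dashed line is the receptor ceiling of each array. Isl1 and Slc18a3 stand out on the rosette array at 10.61 and 10.52, Mnx1 lies under the dashed line throughout, and Tbx20 is high at passage 3 and low at passage 11.

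Isl1, the LIM homeodomain factor needed for motor neurons to form, read 9.70 in EpiSCs, 10.61 in the rosette, 8.37 and 8.64 in OPCs at passages 3 and 11, and 8.15 and 8.49 in oligodendrocytes at passages 3 and 11. It was thus already well above the receptor ceiling before neural induction, was 0.91 (1.88-fold) higher in the rosette, and lay near the ceiling in every later culture. OPCs were lower than the rosette by 2.11 ± 0.23 (SE, 2 OPC arrays and 1 rosette array; 4.31-fold, limma adjusted p = 0.0159). OPCs differed from EpiSCs by -1.20 ± 0.23 (2.30-fold lower, adjusted p = 0.0443). Both calls were lost when either OPC array was left out, with adjusted p of 0.0540 and 0.0626 against the rosette and 0.122 and 0.198 against EpiSCs. Oligodendrocytes differed from OPCs by -0.18 ± 0.19 (limma adjusted p = 0.856), a difference not detected, which does not show that they are equal. On these arrays the rosette read highest, then EpiSCs, then the later cultures. The step between rosette and EpiSCs, 1 array each, has no test. The arrays report RNA of whole cultures, in which fewer cells of a type and less RNA per cell cannot be told apart.

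Isl2, a relative of Isl1 that follows it in young motor neurons, did not share this pattern. It read 8.40 in EpiSCs, 8.58 in the rosette, 8.48 and 9.05 in OPCs, and 8.43 and 8.93 in oligodendrocytes, passage 3 first. The passage 11 arrays were the highest, and the rosette lay between the OPC arrays. OPCs differed from the rosette by 0.18 ± 0.33 (limma adjusted p = 0.891).

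Lhx3, the LIM factor that pairs with Isl1 in the motor neuron complex, read 8.75 in EpiSCs and 9.61 in the rosette. In OPCs it read 8.60 and 8.74, and in oligodendrocytes 8.57 and 8.77. The rosette stood alone, and the 5 other arrays lay within 0.20 of each other. OPCs were lower than the rosette by 0.94 ± 0.19, which did not pass (limma adjusted p = 0.0746) but did with passage as a replicate block (adjusted p = 0.0406). Lhx4, which shares that role with Lhx3, read 9.71 in EpiSCs, 10.22 in the rosette, 9.50 and 9.77 in OPCs, and 9.52 and 9.78 in oligodendrocytes. Its step from rosette to OPCs was -0.59 ± 0.21 (adjusted p = 0.281), and in EpiSCs it lay inside the range of the later cultures. Across the 6 arrays, Lhx3 and Lhx4 correlated at 0.964 and Isl1 and Lhx3 at 0.878, a description over arrays that share the rosette as their high point.

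Mnx1, the homeodomain factor most closely tied to somatic motor neurons, was under the receptor ceiling on all 6 arrays. It read 7.30 in EpiSCs, 7.21 in the rosette, 7.08 and 7.20 in OPCs, and 7.11 and 7.35 in oligodendrocytes, a range of 0.27. No test called a difference, and at these levels small ones could be missed. Phox2a, a paired-like homeodomain factor of branchial and visceral motor neurons and of noradrenergic neurons, was above the ceiling in EpiSCs (8.44) and the rosette (9.02) and under it in OPCs (7.92 and 8.14) and oligodendrocytes (7.95 and 7.76). OPCs were lower than the rosette by 0.99 ± 0.20 (limma adjusted p = 0.0730).

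Both acetylcholine genes were highest in the rosette, and they correlated at 0.849 over the 6 arrays, but only Slc18a3 passed a test. Slc18a3, the vesicular acetylcholine transporter, read 8.70 in EpiSCs, 10.52 in the rosette, 8.26 and 8.37 in OPCs, and 8.33 and 8.43 in oligodendrocytes. The rosette was 3.54-fold above EpiSCs, and the later arrays all lay close to the ceiling. OPCs were lower than the rosette by 2.21 ± 0.17 (4.62-fold, limma adjusted p = 0.0079), and this call held without either OPC array. OPCs differed from EpiSCs by -0.39 ± 0.17 (adjusted p = 0.300). Chat, which encodes choline acetyltransferase, read 8.06 in EpiSCs, 8.40 in the rosette, 7.91 and 8.10 in OPCs, and 7.79 and 8.08 in oligodendrocytes. Only the rosette value was above the ceiling, and the step to OPCs was -0.39 ± 0.21 (adjusted p = 0.496). The difference between the steps of the genes was not tested, and the Chat row lies near background, where differences are compressed.

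These genes share a locus: in RefSeq (GRCm38.p6), Slc18a3 lies at chr14:32462437-32464850, inside Chat at chr14:32408203-32465909, on the same strand, and the gene starts are 1059 bases apart. The sequences below are the 250 bases before each start, shown because these genes share the locus; capitals mark the homeodomain core letters ATTA on either strand.
Slc18a3, chr14:32464851-32465100, minus strand: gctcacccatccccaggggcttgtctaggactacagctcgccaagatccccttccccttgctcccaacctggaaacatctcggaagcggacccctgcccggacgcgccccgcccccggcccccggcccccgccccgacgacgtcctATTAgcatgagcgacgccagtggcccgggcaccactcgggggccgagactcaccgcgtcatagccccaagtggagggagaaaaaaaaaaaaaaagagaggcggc
Chat, chr14:32465910-32466159, minus strand: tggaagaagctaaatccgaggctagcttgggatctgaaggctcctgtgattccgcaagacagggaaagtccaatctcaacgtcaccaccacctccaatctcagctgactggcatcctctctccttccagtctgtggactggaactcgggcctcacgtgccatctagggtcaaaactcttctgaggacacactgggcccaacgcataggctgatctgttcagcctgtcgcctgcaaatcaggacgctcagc
The Slc18a3 window holds 1 core match, 104 bases before the start, and the Chat window holds 0. The Chat window has a GC content of 54.8% and the Slc18a3 window 66.0%, beside a median of 52.4% over 32851 promoter windows.

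For comparison, the same window is shown for Isl1, which fell with Slc18a3, and for Tbx20, the gene with the largest change of the 9.
Isl1, chr13:116309689-116309938, minus strand: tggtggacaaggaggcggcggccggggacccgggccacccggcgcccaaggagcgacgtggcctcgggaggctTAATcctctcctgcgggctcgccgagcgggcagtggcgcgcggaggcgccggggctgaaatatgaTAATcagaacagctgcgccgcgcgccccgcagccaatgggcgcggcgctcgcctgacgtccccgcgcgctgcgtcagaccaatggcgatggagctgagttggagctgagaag
Tbx20, chr9:24774304-24774553, minus strand: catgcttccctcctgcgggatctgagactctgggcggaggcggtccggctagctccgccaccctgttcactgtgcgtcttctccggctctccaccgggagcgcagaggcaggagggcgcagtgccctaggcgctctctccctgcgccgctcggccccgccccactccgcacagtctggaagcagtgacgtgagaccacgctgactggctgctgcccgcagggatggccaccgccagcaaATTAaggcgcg
The Isl1 window holds 2 core matches, 177 and 112 bases before the start, and the Tbx20 window holds 1, at 11 bases. All 9 genes were found in the promoter table, with 10 windows, since Lhx3 has 2. The core ATTA occurred in windows of 5 of the 9 genes and in 54.9% of all windows of this length. The E-box CAGCTG occurred in those of Isl1 and Chat (13.0% of all windows) and the E-box CATCTG in 1 of the Lhx3 windows (14.4%). The letters TAATTA (4.84% of all windows, which also count as ATTA), the Onecut letters ATCGAT (0.73%), the nuclear receptor half-site AGGTCA (14.02%) and the GLI letters GACCACCCA (0.23%) were in none of the 10. All were searched on both strands, and a match is a description of letters only.

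Tbx20, a T-box factor of branchial motor neurons that is also a heart gene, had the widest range of the 9, 3.15. It read 7.28 in EpiSCs and 10.41 in the rosette, 9.91 and 8.34 in OPCs at passages 3 and 11, and 10.44 and 7.75 in oligodendrocytes at passages 3 and 11. It was 3.13 (8.74-fold) higher in the rosette than in EpiSCs, where it lay under the receptor ceiling. Set against that ceiling instead, the difference was 2.18 (4.53-fold). At passage 3 it stayed near the rosette level in OPCs and in oligodendrocytes, and at passage 11 it was at 8.34 in OPCs, just over the receptor ceiling, and under it in oligodendrocytes. The means of the OPC arrays (9.12 ± 1.11, SD, n = 2) and of the oligodendrocyte arrays (9.09 ± 1.90, SD, n = 2) are therefore each the mean of a high and a low array. With this spread, OPCs against the rosette, at -1.29 ± 1.18, had an adjusted p of 0.756 by limma, and no comparison of cell types called it with all 6 arrays. That fit counts the passage difference as spread. With passage as a replicate block the SE was 0.36 (limma adjusted p = 0.145), and OPCs against EpiSCs had an adjusted p of 0.0514. OPCs minus EpiSCs was 1.84, with an SE of 1.18 on all 6 arrays. Without an oligodendrocyte array, whose passage spread then left the fit, its SE was 0.42. Oligodendrocytes minus OPCs was -1.37 without the oligodendrocyte array of passage 3 and 1.31 without that of passage 11. Both set 1 passage of oligodendrocytes against both passages of OPCs, so they carry the passage difference. Within a passage, oligodendrocytes minus OPCs was 0.53 at passage 3 and -0.59 at passage 11.

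For Tbx20, passage 11 minus passage 3 was -1.58 in OPCs (2.98-fold lower) and -2.69 in oligodendrocytes (6.45-fold lower). The passage 11 oligodendrocyte value lay under the ceiling, and from passage 3 down to that ceiling the distance was 2.03 (4.07-fold). A fall of at least 2-fold in both cell types was seen in 67 genes, 0.336% of those tested, and Tbx20 ranked 12 among 19938 by the smaller of its falls. The test over both cell types gave -2.13 ± 0.29 (2 arrays a passage) with an adjusted p of 0.357, and limma called 0.0% of all genes in this comparison. At an unadjusted p under 0.05 there were 2769 genes (13.9%), among them Tbx20 and Isl2, 2 of the 9. Isl2 moved the other way, higher at passage 11 by 0.57 in OPCs and 0.50 in oligodendrocytes. In all, 7 of the 9 were higher at passage 11 in both cell types, against 40.1% of all genes, though apart from Isl2 by no more than 0.33. By the sign of the passage fit, 8 of the 9 were higher at passage 11, and 11331 of all 19938 genes. Small rises were not particular to the 9. By that sign, 20 of 22 spinal interneuron, 7 of 8 cardiac, 5 of 5 endocrine pancreas and 4 of 4 EpiSC markers were also higher. Other lists were mostly lower: 7 of 19 motor axon genes, 4 of 10 LIM factor partners, 3 of 13 general neuronal genes and 0 of 5 floor plate markers were higher. The median of the receptor genes read 6.39 and 6.43 in OPCs and 6.41 and 6.61 in oligodendrocytes, passage 3 first, and its part in these rises was not tested. Phox2a differed by 0.22 in OPCs and -0.19 in oligodendrocytes.

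**Figure D2:**
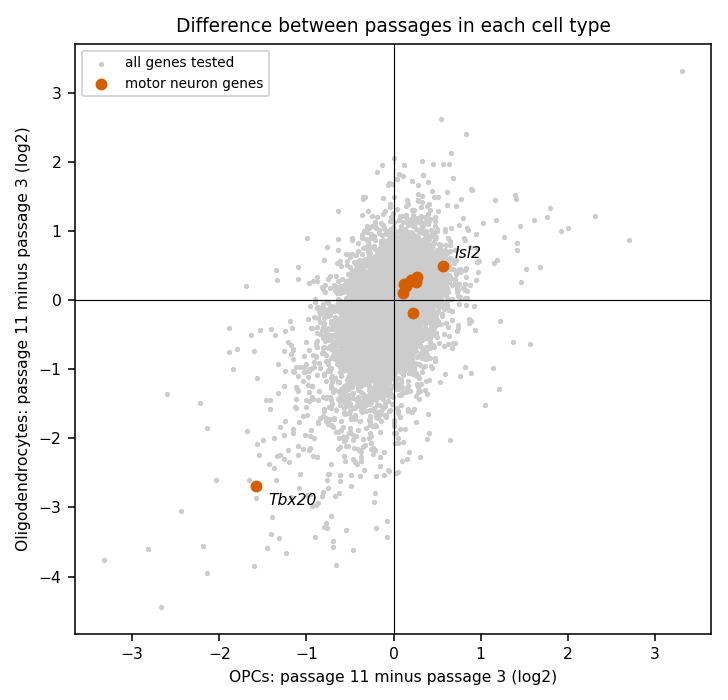
Passage 11 minus passage 3 (log2) in OPCs on the horizontal axis and in oligodendrocytes on the vertical axis. Grey points are all 19938 genes tested and orange points the 9 motor neuron genes, with no error bars because each value is 1 array minus 1 array. Tbx20 lies at -1.58 and -2.69, and the other 8 lie near 0, with Isl2 the highest at 0.57 and 0.50.

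Some neuronal and ventral genes of the lists also read lower at passage 11, without passing the limma test; the 3 given here were picked after their values were seen. Stmn2, a neuronal microtubule regulator, read 10.48 and 7.82 in OPCs and 12.56 and 8.12 in oligodendrocytes, passage 3 first, while EpiSCs read 12.79 and the rosette 13.74. Nkx6-1, a ventral progenitor factor, read 10.08 and 9.16 in OPCs and 9.86 and 9.07 in oligodendrocytes, but 5 of the 7 factors in its list were higher at passage 11, with a median of 0.10 and mean levels of 9.89 and 9.76 in OPCs and 9.85 and 9.71 in oligodendrocytes. Netrin gene Ntn1, a floor plate marker, read 11.33 and 10.22 in OPCs and 11.48 and 10.20 in oligodendrocytes. Over the 13 general neuronal genes the mean level was 9.91 and 9.65 in OPCs and 10.09 and 9.60 in oligodendrocytes. Much of that came from Stmn2: the change in the mean was -0.25 and -0.49, and -0.05 and -0.16 when Stmn2 was left out, while the median passage difference of the list was -0.07. Over the 5 floor plate markers it was 10.38 and 9.93, and 10.45 and 9.84. The part of such cells in the Tbx20 values was not tested. The heart is another tissue in which Tbx20 is known. The mean of 8 cardiac markers was 8.52 and 8.67 in OPCs and 8.45 and 8.62 in oligodendrocytes. In EpiSCs that mean was 8.73, and in the rosette 8.36. Single markers of the 8 differed in direction, with OPCs minus EpiSCs at 1.54 for Mef2c and -1.24 for Myl7. The part of cardiac cells in the Tbx20 values was not tested.

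In the comparison of OPCs with the rosette, 2 of the 9 genes fell and 0 rose, against 1.87% of all genes called lower and 1.26% called higher by limma at an adjusted p under 0.05. The median of the 9 was -0.94, beside 0.02 over all genes, and 8 of the 9 were negative. At an unadjusted p under 0.05, 5 of the 9 were lower and 0 higher, with 15.4% of all genes past that limit and 9.75% lower. The count was 1, Slc18a3, without either OPC array, 3 with passage as a replicate block, and 4 without either oligodendrocyte array, when Lhx3 and Phox2a joined. Calls over all genes moved with these settings too. They fell without an OPC array and rose without an oligodendrocyte array. With passage as a replicate block they rose from 624 to 1206. The lone rosette array was taken to vary as the OPC and oligodendrocyte pairs do. Between oligodendrocytes and OPCs 0 of the 9 were called, by limma or at an unadjusted p under 0.05, with 0.446% of all genes called (0.396% higher, 0.0502% lower) and 12.3% at the unadjusted limit. The median of the 9 there was -0.03. The oligodendrocyte arrays lay wholly on one side of the OPC arrays for 0 of the 9, against 40.1% of all genes. That rule does not pair the arrays by passage, so differences between passages enter it. With passage as a replicate block, 0 of the 9 were called as well. Between OPCs and EpiSCs only Isl1 was called, lower (2.93% of all genes lower, 4.07% higher, 7.01% in all); 1 of the 9 passed an unadjusted p under 0.05, against 20.5%. The median of the 9 was -0.08, beside -0.05 over all genes. These comparisons share arrays and are not independent.

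**Figure D3:**
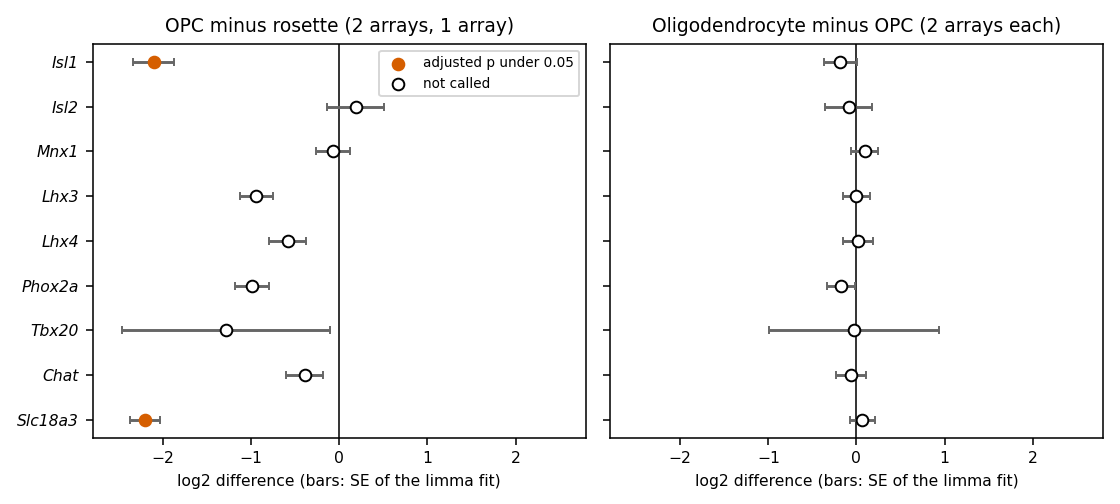
Log2 differences (horizontal axis) of the 9 genes for OPCs minus rosette and for oligodendrocytes minus OPCs, with the SE of the limma fit as bars. Filled points have an adjusted p under 0.05. Isl1 at -2.11 and Slc18a3 at -2.21 are the filled points, and in the second panel all 9 lie between -0.18 and 0.09.

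Genes that act before and around the 9 were followed in fixed lists. Beside the list counts here and below, 6.91% of all genes were at least 2-fold higher and 3.69% lower in the rosette than in EpiSCs. From rosette to OPCs limma called 1.87% of all genes lower and 1.26% higher, and from EpiSCs to OPCs 4.07% higher. No list count was tested against these shares, and in a short list a count of 1 or 2 says little. Of 7 motor neuron progenitor and specification factors, all 7 were at least 2-fold higher in the rosette than in EpiSCs, with a median of 1.79. From rosette to OPCs 4 fell and 1 rose. The Onecut factor genes, which help start Isl1, fell (Onecut1 -2.84 ± 0.18, Onecut2 -2.35 ± 0.24), as did Pax6, a progenitor factor (-2.70 ± 0.22), and the proneural gene Neurog2 (-1.78 ± 0.18) (limma adjusted p from 0.0058 to 0.0141). Olig2, which these progenitors share with OPCs, rose by 3.39 ± 0.22 (adjusted p = 0.0058). Neurog2, like Isl1, was not called without either OPC array (adjusted p = 0.0725 and 0.0664).

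Of 8 motor column and subtype factors, 4 were at least 2-fold higher and 1 lower in the rosette than in EpiSCs, and from rosette to OPCs 5 fell and 1 rose. Ebf2, a factor of axial motor neurons, read 7.87 in EpiSCs, 10.61 in the rosette and 7.61 and 8.06 in OPCs (-2.78 ± 0.24). Lhx1, the LIM factor of lateral limb motor neurons and of several interneurons, read 9.09, 11.04, 8.25 and 8.43 in the same order (-2.70 ± 0.20). Esrrg, a nuclear receptor of gamma motor neurons, fell by 1.57, Mecom, a zinc finger factor, by 1.57 and Foxp1, the limb column factor, by 1.76. Etv4, an ETS factor of motor pools that also responds to FGF, rose by 1.79 ± 0.23 (limma adjusted p = 0.0244). Esrrg, Mecom, Foxp1 and Etv4 were not called without either OPC array (adjusted p from 0.0837 to 0.148), nor Foxp1 and Etv4 after quantile normalization (0.0678 and 0.0518), nor Mecom with the mean of its rows (0.0590). Of 5 measured branchial and visceral factors 2 were at least 2-fold higher in the rosette than in EpiSCs, and 1 fell from rosette to OPCs, Hoxb1, the Hox gene of the facial motor segment (-2.43 ± 0.24, adjusted p = 0.0130). Nkx2-2 was at 1.21 ± 0.42 (adjusted p = 0.256).

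Of 7 other cholinergic genes, 2 were at least 2-fold higher and 1 lower in the rosette than in EpiSCs, and 2 fell from rosette to OPCs. Slc10a4, a vesicle protein of cholinergic and monoamine neurons, read 6.80 in EpiSCs, 9.66 in the rosette and 6.87 and 7.32 in OPCs (-2.57 ± 0.23, limma adjusted p = 0.0104). Ache, acetylcholinesterase, fell by 1.42 ± 0.23 (adjusted p = 0.0459), a call lost without either OPC array (0.178 and 0.101) and after quantile normalization (0.0511). Slc5a7, the choline transporter of cholinergic terminals, read 8.42 in EpiSCs and 8.48 in the rosette, and 7.32 and 7.54 in OPCs (-1.05 ± 0.24, adjusted p = 0.105), with no step between EpiSCs and rosette like that of Slc18a3. Of 10 partners of LIM factors (the Ldb, Lmo and Ssbp genes and Rlim), 0 were called between rosette and OPCs, and Ldb1 stayed between 11.95 and 12.71 on all 6 arrays. From EpiSCs to OPCs 4 of them rose, among them Lmo3, an LIM-only protein gene, by 3.84 (adjusted p = 0.0064).

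**Figure D4:**
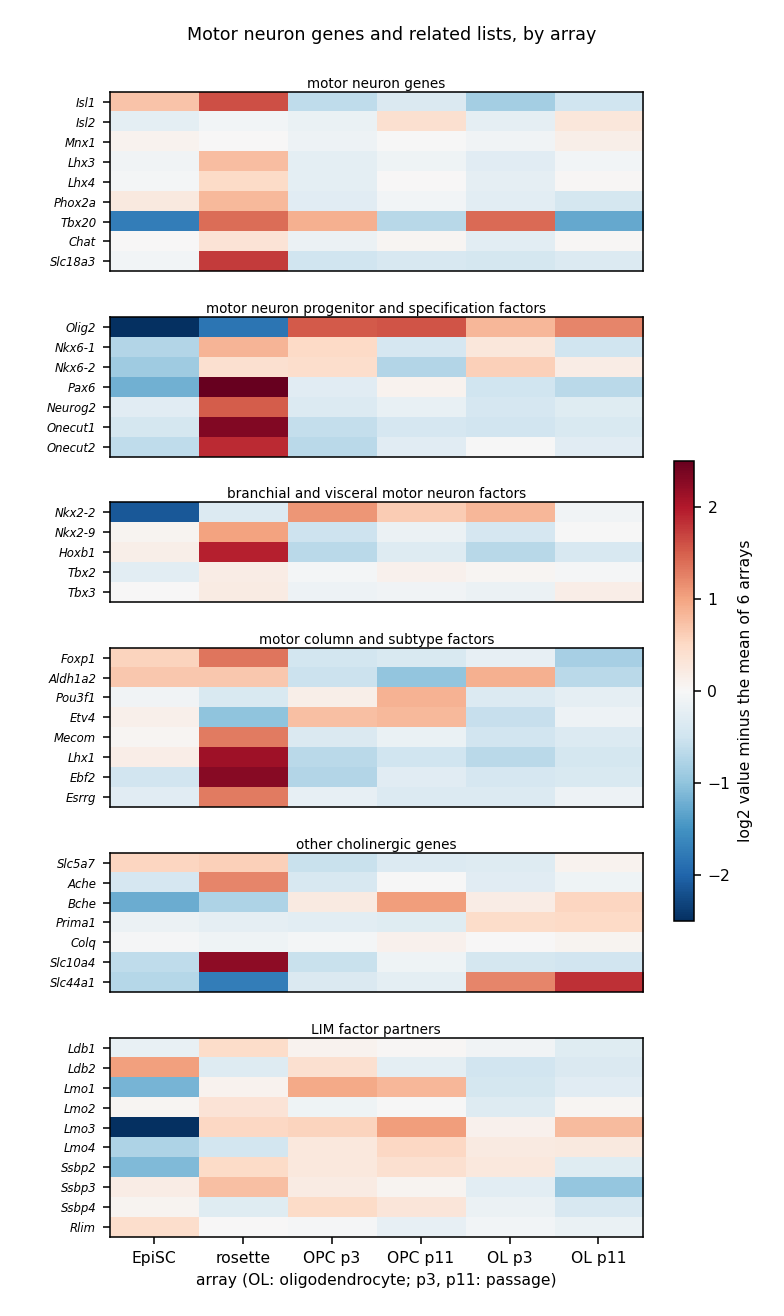
Log2 value minus the gene's mean over the 6 arrays (colour) for the 9 motor neuron genes and for 5 related lists, 1 row per gene and 1 column per array. The colour scale stops at 2.5 in each direction. In the rows of Isl1, Slc18a3, Onecut1, Pax6, Ebf2 and Slc10a4 the rosette is the reddest of the 6 columns, while Tbx20 is red also at passage 3.

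Of 19 measured motor axon guidance, receptor and effector genes, 12 were at least 2-fold higher in the rosette than in EpiSCs, and 5 fell and 0 rose from rosette to OPCs. These were Epha3 (-3.50), Ret, a GDNF receptor kinase (-2.70), the ephrin receptor gene Epha4 (-2.21), the Slit receptor gene Robo1 (-1.85) and the CNTF receptor gene Cntfr (-1.65), of which Ret alone was called without each OPC array in turn. Chodl and Mmp9, markers of fast motor neurons, lay between 7.17 and 8.24 on all arrays. Slit2 read 11.90 in the rosette and 12.04 in oligodendrocytes at passage 3, but 9.36 in those of passage 11.

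Some markers of other neurons were also higher in the rosette than in EpiSCs, and others were not. Of 13 general neuronal genes 12 were at least 2-fold higher in the rosette than in EpiSCs, with a median of 3.32, and 7 fell and 0 rose from rosette to OPCs, of which Elavl4 and Snap25 were not called without either OPC array and Elavl3 not without that of passage 11. The list's mean level was 8.77 in EpiSCs, 12.19 in the rosette, and 9.60 to 10.09 later. Of 22 measured spinal interneuron markers 4 were at least 2-fold higher in the rosette than in EpiSCs and 3 fell from rosette to OPCs: Lhx5 (-2.15), Pax8 (-1.60) and Gata3 (-1.19), the latter pair not called without either OPC array. The median difference of the 22 between rosette and EpiSCs was 0.15, and 9 of them were lower in the rosette. Of 4 serotonergic markers 2 were at least 2-fold higher in the rosette, and Slc18a2, the vesicular monoamine transporter, read 8.14 in EpiSCs, 11.26 in the rosette and 7.89 and 7.75 in OPCs (-3.44 ± 0.17, limma adjusted p = 0.0058). Tph2 and Slc6a4 of that list read 7.49 and 8.13 in EpiSCs and 7.60 and 8.03 in the rosette, under the receptor ceiling. Of 3 sensory and sympathetic markers 1 fell, the catecholamine enzyme gene Th (-1.53), not called without either OPC array. Of 5 floor plate markers Foxa1 fell (-1.60), likewise not called without either OPC array, and of 4 neuroepithelial markers Prom1 fell (-2.03), not called without that of passage 11 (adjusted p = 0.0628). The 8 cardiac and 5 endocrine pancreas markers belong to other tissues known for Isl1, Tbx20 or Mnx1. Of these markers 0 were called between rosette and OPCs (3.13% of all genes). Between rosette and EpiSCs 0 were 2-fold apart (6.91% of all genes higher, 3.69% lower). At these shares, 0 among so few genes says little about either tissue. The part of the other neuron types in the values of Isl1, Lhx3, Phox2a and Slc18a3 was not tested.

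The genes whose profile over the 6 arrays was most like that of Isl1, among 1536 with a range of at least 2, were Cmtm8 (Pearson r = 0.978), Chrnb4 (0.971), Nefl (0.967), Snhg11 (0.967) and Lin28b (0.963), then Nr0b1, Crabp2 and Hoxb1. Cmtm8 and Lin28b, like Isl1, were high in EpiSCs, at 10.10 each. The mean of the 9 centred profiles was most like Resp18 (0.999), Celf3 (0.997), Nefm, L1cam, Mab21l1, Nhlh2, Sncg and Slc17a6 (0.995), which peak in the rosette. For Tbx20, added after its values were seen, they were Ntn1 (0.963), Gabrb2 (0.950), Vat1l (0.941), Fhl1, Hivep2, Tmem178b, Fgfr3 and Cdh6 (0.912). These are descriptions over 6 arrays that share the rosette and the passages.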

How the data were processed

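The 6 mouse cultures gave 1 Affymetrix array each, from 150 ng of RNA per the labels. The deposited log2 values were made by the authors with RMA (background correction, normalization across arrays, probe summary) in Expression Console; RMA and the program are named in the submitters' processing notes, without version or options. No detection call comes with the values, and folds near background are compressed. Precision is limited by having 6 arrays.

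Of 35556 rows, 21789 carried 1 gene symbol; the row with the highest mean was kept per gene, leaving 19938 genes, and other rows were not used. Tests used limma 3.58.1 in R 4.3.3 (lmFit, eBayes, two-sided), with Benjamini-Hochberg adjustment over all genes and 0.05 as the threshold. All 6 arrays entered 1 fit of 4 groups (2 residual and 3.32 prior degrees of freedom). Passage was tested on 4 arrays with cell type as a covariate (1 residual and 3.19 prior degrees of freedom), so its SE measures how the cell types disagree. Without replicates, rosette against EpiSC differences of at least 2-fold were counted. Passage numbers pair OPCs with the oligodendrocytes made from them, per the labels; their passage differences correlated at 0.503 across genes. Alternatives were the passage block, each array left out, a filter on dim genes, mean rows, an intensity trend and quantile normalization; the neuronal list without Stmn2 was added after seeing the data. The fits were tested on simulated data. The 9 genes and the lists were chosen with earlier results of these data known. All 9 are named; list genes are named for the largest differences or a call, and similar genes are the 8 of highest correlation. Ldb1, Rlim, Chodl, Mmp9, Nkx6-1 and Slc5a7 fall outside that rule and were named after their values were seen. List genes without a row of their own were not analysed here. Promoter sequences are RefSeq's (GRCm38.p6), matched by symbol.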

Additional observations from a re-analysis of the deposited data

Results flagged for a closer look

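Tbx20 was set apart because its difference between oligodendrocytes and OPCs ran in opposite directions at the 2 passages: oligodendrocytes were higher by 0.53 at passage 3, and the difference was -0.59 at passage 11. Each value is 1 array minus 1 array, and the difference between them was not tested. Among the 9 genes it was the only one with differences of at least 0.5 in opposite directions, between cell types or between passages.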

How the results depend on the processing

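The genes of the 9 called between OPCs and rosette numbered 2, and from 1 to 4 when an OPC or oligodendrocyte array was left out; for OPCs against EpiSCs it was 1, from 0 to 2, and for oligodendrocytes against OPCs 0, from 0 to 1. Over all genes, leaving out an array moved 624 calls (OPCs against rosette) to between 156 and 2897, 1397 (OPCs against EpiSCs) to between 470 and 4154, and 89 (oligodendrocytes against OPCs) to between 2 and 2919. The passage replicate block gave 1206, 2318 and 83; among the 9 genes it changed only the call of Lhx3. Quantile normalization left 14 calls between oligodendrocytes and OPCs. The intensity trend called 1 gene between passages, against 0. At 1.5-fold instead of 2-fold, 4 of the 9 genes (in place of 2) and 4502 of all genes (in place of 2113) differed between rosette and EpiSCs. In that comparison quantile normalization moved Lhx4 to 0.33 and Slc18a3 to 1.72. Of 328 values of the 9 genes under the alternatives, 298 counted as unchanged. In the tested comparisons these kept their side of the threshold and their direction. Between rosette and EpiSCs, which has no test, they shifted by no more than the gene's residual SD in the main fit. Mnx1 there, at 0.01 after quantile normalization, was so counted although its sign changed. Another 8 gained a call and 4 lost one. The shifts of Lhx4 and Slc18a3 above, 2 values, were larger than that SD, and 16 values, with no call on either side, changed sign. With an array left out, oligodendrocytes minus OPCs ranged from -1.37 to 1.31 for Tbx20, -0.37 to 0.20 for Isl2, -0.11 to 0.10 for Lhx3, -0.12 to 0.15 for Lhx4, -0.022 to 0.21 for Mnx1 and -0.21 to 0.079 for Chat. OPCs minus rosette ranged from -0.10 to 0.47 for Isl2, and OPCs minus EpiSCs from -0.21 to 0.058 for Lhx4 and -0.16 to 0.042 for Chat. Quantile normalization gave 0.011 for Chat in that comparison and -0.072 for the passage difference of Phox2a. Without an OPC or oligodendrocyte array the passage fit has no residual degrees of freedom, so it was not run. The cause of these shifts was not tested. Dim rows such as those of Mnx1 and Chat limit what could be detected.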
